A study of Mus musculus with 30 samples.

Results

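The chemokine genes Ccl2, Ccl7, Ccl11, Ccl12 and Ccl8 lie side by side on mouse chromosome 11 and encode attractants of monocytes and eosinophils. They were taken by symbol, and these 5 genes are 5 of the 39179 gene identifiers counted in the ventral prostate (VP). The genes were selected on their chromosomal cluster with their CPM and their log2 fold changes between diets known, so those differences are given below as a description with no test. RNA was sequenced from whole VP of C57BL/6 mice fed for 12 or 32 weeks from weaning on a diet whose fat was linseed oil (LO group), soybean oil (SO group) or pork fat (PF group), with 5 mice in each of the 6 groups and 30 in all. The diets held the same amount of fat and differed in its source, and there was no group on another diet. All cell types of the gland were sequenced together, so that fewer cells of a type and less RNA per cell cannot be told apart.

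CC chemokines are small secreted proteins named for a pair of adjacent cysteines near their start. They bind receptors on leukocytes, which then move towards the source. Ccl2, Ccl7 and Ccl12 are ligands of Ccr2, the receptor that draws inflammatory monocytes out of the blood. Ccl11, eotaxin, acts on Ccr3 of eosinophils. Mouse Ccl8 is a ligand of Ccr8, which is found on some T cells. Macrophages, fibroblasts and endothelial cells can all make members of the group, and tumour necrosis factor, interleukin 1 and interleukin 4 are among the cytokines known to induce them.

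The 5 genes span 81229 bases of GRCm38 (chr11:82035571-82116799), all on the plus strand. Ccl2 (ENSMUSG00000035385) occupies chr11:82035571-82037453, Ccl7 (ENSMUSG00000035373) chr11:82045712-82047525 and Ccl11 (ENSMUSG00000020676) chr11:82057823-82062955. Ccl12 (ENSMUSG00000035352) occupies chr11:82101845-82103400 and Ccl8 (ENSMUSG00000009185) chr11:82115185-82116799. The nearest protein-coding genes outside are Asic2, 67114 bases to the left, and Ccl1, 59858 bases to the right. The antisense gene Gm17268 runs across Ccl2 with 0 bases of shared exon, and 0 counts fell on it in the 30 mice.

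The members are relatives, and the stretch around the cysteine pair is shown for each. The coding bases below are in the order of the chromosome, from the transcripts of GENCODE M21 (GRCm38), with the 2 cysteine codons in capitals.
Ccl2: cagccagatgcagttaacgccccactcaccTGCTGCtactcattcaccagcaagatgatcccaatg
Ccl7: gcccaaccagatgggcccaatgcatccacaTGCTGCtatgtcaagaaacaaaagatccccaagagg
Ccl11: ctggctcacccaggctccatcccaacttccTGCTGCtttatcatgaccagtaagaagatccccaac
Ccl12: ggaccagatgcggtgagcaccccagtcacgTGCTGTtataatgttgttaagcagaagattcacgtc
Ccl8: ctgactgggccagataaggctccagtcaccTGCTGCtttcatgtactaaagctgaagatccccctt
Compared position by position with no gaps, Ccl12 and Ccl8 shared 39 of these 66 positions, the most of the 10 pairs. Ccl7 and Ccl8 shared 20, the fewest. A shift in length lowers such a count, as for Ccl2 and Ccl7, with 27 shared positions but 72.4% identity over aligned coding bases. Over the 287 to 310 coding bases aligned in a pair, gaps left out, identity lay between 64.6% (Ccl11 and Ccl8) and 73.3% (Ccl2 and Ccl8). The Ccl2 transcript used has 444 coding bases, so part of it was not compared. The longest exact run shared by the transcripts of any pair was 23 bases, between Ccl2 and Ccl7, and the reads were 100 bases long.

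Ccl12 and Ccl8, the pair at the right end of the cluster and the members called below between time points, are also the 2 members matched in the RefSeq promoter table (GRCm38.p6). Their 250 bases before the start of transcription are shown with the TATAAA motif in capitals, chr11:82101595-82101844 for Ccl12 and chr11:82114935-82115184 for Ccl8, both on the plus strand.
Ccl12: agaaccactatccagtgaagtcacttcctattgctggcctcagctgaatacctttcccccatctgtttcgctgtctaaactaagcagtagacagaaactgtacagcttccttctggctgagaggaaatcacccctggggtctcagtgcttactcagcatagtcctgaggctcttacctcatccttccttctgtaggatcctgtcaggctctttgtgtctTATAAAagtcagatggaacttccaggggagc
Ccl8: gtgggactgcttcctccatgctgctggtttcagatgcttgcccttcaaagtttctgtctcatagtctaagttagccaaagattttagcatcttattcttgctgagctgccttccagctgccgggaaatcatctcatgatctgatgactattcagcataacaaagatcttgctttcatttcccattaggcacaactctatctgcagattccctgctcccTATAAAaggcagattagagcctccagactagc
TATAAA began 31 bases before the start in Ccl12 and 32 before it in Ccl8, and 12.4% of the 32851 promoters held this motif on either strand. Both promoters were 62.0% identical over 234 aligned bases. Neither held the letters TGANTCA (AP-1), TTCNNNGAA (STAT), TTGCNNAA (C/EBP) or GGGCGG (GC box), found on either strand in 6.75%, 7.02%, 9.56% and 32.7% of promoters, nor the NF-kB and STAT6 motifs, found in 7.25% and 5.85%. A missing match says only that these letters were not in this window.

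Sequencing gave 27590631 to 41301707 gene counts per mouse (median 33684704). At this depth the members were thinly covered apart from Ccl8 and Ccl11. The counts per mouse were 8 to 181 for Ccl2, 5 to 213 for Ccl7, 11 to 102 for Ccl12, 67 to 509 for Ccl11 and 20 to 1346 for Ccl8. All 5 had counts in all 30 mice and passed the filter on low expression in each fit, so no member was left out. Levels are given as CPM, the count as a share of its scaled library. The labels give 5 samples per group and do not say how cages or litters were shared. The p-values of the fits weigh a difference between groups against a spread estimated from all samples in the fit.

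Per kb of exon, Ccl8 was the most abundant member, with a mean of 23.8 CPM per kb over the 30 mice. Ccl11 followed with 7.09 CPM per kb, then Ccl12 with 2.07, Ccl7 with 1.57 and Ccl2 with 1.29. Ccl8 also varied most, its highest mouse being 69.3 times its lowest, compared to 7.37 times for Ccl11.

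**Figure D1:**
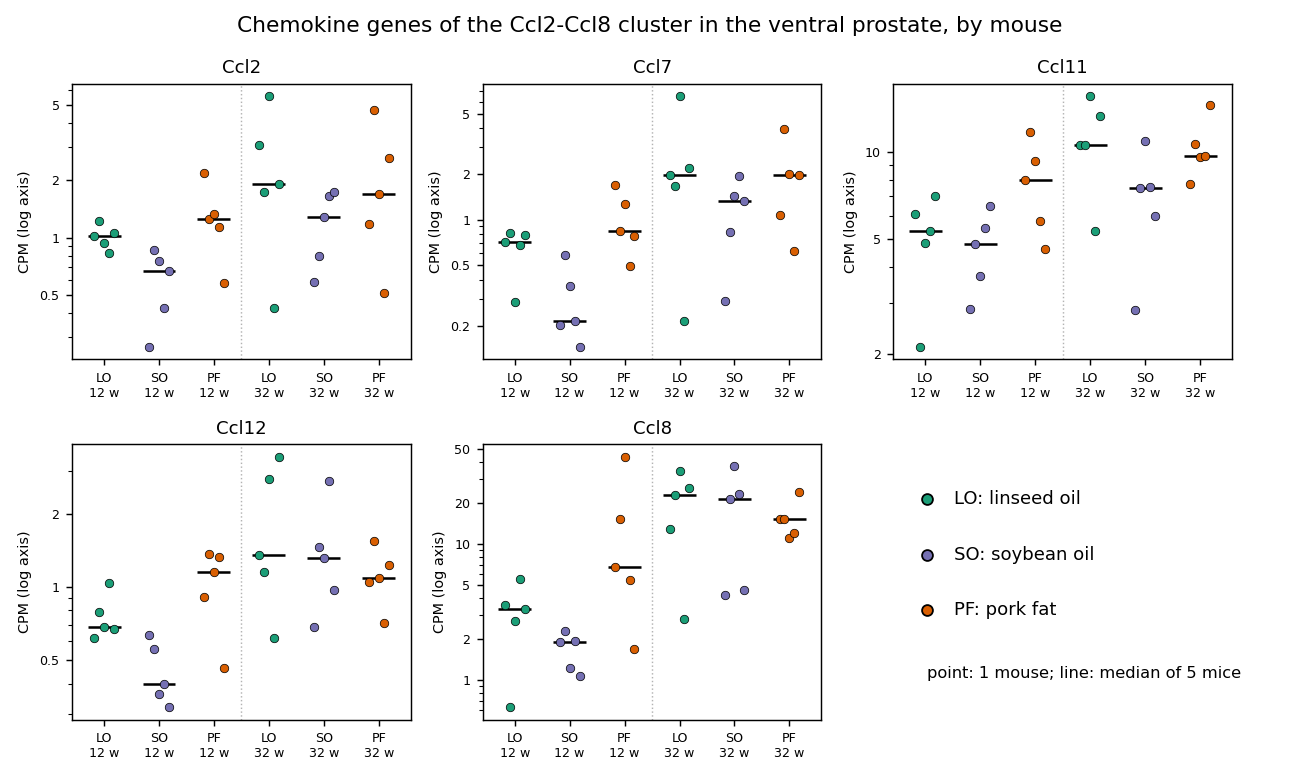
Level of each of the 5 chemokine genes in CPM (log axis) in each of the 30 mice, by diet and time point (points are mice, lines are medians of 5). SO mice at 12 weeks have the lowest mean of each gene and LO mice at 32 weeks the highest, and the spread within groups is wide at 32 weeks in LO and SO and at 12 weeks in PF for Ccl8. LO mouse 3 of 32 weeks is the highest of its group for 4 of the 5 genes.

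The monocyte attractants of the Ccr2 group were low throughout. Ccl2 in 12-week mice was 0.833, 0.935, 1.02, 1.06 and 1.23 CPM in LO, 0.268, 0.429, 0.669, 0.757 and 0.861 CPM in SO and 0.578, 1.13, 1.26, 1.33 and 2.17 CPM in PF. At 32 weeks it was 0.430, 1.74, 1.91, 3.06 and 5.54 CPM in LO, 0.584, 0.803, 1.29, 1.65 and 1.73 CPM in SO and 0.511, 1.17, 1.69, 2.64 and 4.69 CPM in PF. Each diet at 32 weeks held at least 1 mouse as low as the 12-week mice, and the highest mice were in LO and PF.

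Ccl7, which like Ccl2 binds Ccr2 and also binds Ccr1 and Ccr3, was as low. At 12 weeks it was 0.288, 0.676, 0.716, 0.790 and 0.821 CPM in LO, 0.145, 0.201, 0.214, 0.362 and 0.584 CPM in SO and 0.497, 0.780, 0.839, 1.26 and 1.68 CPM in PF. At 32 weeks it was 0.215, 1.66, 1.96, 2.18 and 6.52 CPM in LO, 0.292, 0.833, 1.32, 1.43 and 1.95 CPM in SO and 0.625, 1.07, 1.96, 1.99 and 3.95 CPM in PF. The LO mice at 32 weeks held both the highest value of the 30 mice and 1 of the lowest.

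Ccl12, the third ligand of Ccr2, varied least of the low members, by 10.7 times between its lowest and highest mouse. At 12 weeks it was 0.614, 0.668, 0.683, 0.789 and 1.04 CPM in LO, 0.320, 0.362, 0.398, 0.554 and 0.637 CPM in SO and 0.462, 0.906, 1.15, 1.32 and 1.37 CPM in PF. At 32 weeks it was 0.614, 1.15, 1.36, 2.79 and 3.43 CPM in LO, 0.681, 0.970, 1.32, 1.46 and 2.73 CPM in SO and 0.710, 1.05, 1.09, 1.23 and 1.54 CPM in PF. In SO the lowest mouse at 32 weeks stood above the highest at 12 weeks.

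Ccl11, the eosinophil attractant, had the narrowest range. At 12 weeks it was 2.12, 4.82, 5.33, 6.06 and 7.05 CPM in LO, 2.85, 3.72, 4.80, 5.45 and 6.48 CPM in SO and 4.59, 5.74, 8.00, 9.30 and 11.8 CPM in PF. At 32 weeks it was 5.31, 10.5, 10.5, 13.3 and 15.6 CPM in LO, 2.82, 6.00, 7.46, 7.55 and 10.9 CPM in SO and 7.72, 9.61, 9.66, 10.6 and 14.5 CPM in PF. LO and SO overlapped almost wholly at 12 weeks, and the PF mice reached higher.

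Ccl8 moved over the widest range. At 12 weeks it was 0.631, 2.73, 3.31, 3.58 and 5.57 CPM in LO, 1.08, 1.22, 1.91, 1.93 and 2.31 CPM in SO and 1.70, 5.41, 6.73, 15.3 and 43.8 CPM in PF. At 32 weeks it was 2.79, 12.8, 23.0, 25.9 and 34.6 CPM in LO, 4.25, 4.59, 21.5, 23.2 and 37.7 CPM in SO and 11.2, 12.0, 15.2, 15.3 and 24.1 CPM in PF. A single PF mouse held the highest value of the series at 12 weeks. At 32 weeks SO split into low mice (4.25 and 4.59 CPM) and high mice (21.5 to 37.7 CPM). LO held a low mouse (2.79 CPM) and others spread from 12.8 to 34.6 CPM, while the PF mice lay closer together.

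The order of the group means was alike for the 5 genes at its ends. LO at 32 weeks was highest for all 5 and SO at 12 weeks lowest for all 5, from 19.8 ± 12.3 CPM (SD, n = 5) to 1.69 ± 0.521 CPM (SD, n = 5) for Ccl8 and from 2.54 ± 1.92 CPM (SD, n = 5) to 0.597 ± 0.243 CPM (SD, n = 5) for Ccl2. PF at 32 weeks came second for Ccl2, Ccl7 and Ccl11, and SO at 32 weeks second for Ccl12 and Ccl8. The first place of LO was not stable to leaving out 1 mouse. LO mouse 3 of 32 weeks was the highest of its group for Ccl2, Ccl7, Ccl11 and Ccl8. With 1 mouse left out, the log2 fold change of PF against LO reached 0.26 for Ccl2, 0.35 for Ccl7 and 0.08 for Ccl11. That of LO against SO fell to -0.17 for Ccl8. The ranges of mice in neighbouring groups of the order overlapped for each gene, so that no 2 neighbours were set apart by their spread.

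Diets were compared within a time point, the question of the study. In 12-week PF mice all 5 members were higher than in SO mice, by 3.12 ± 0.717 (log2 fold change ± SE) for Ccl8, 1.74 ± 0.411 for Ccl7, 1.20 ± 0.295 for Ccl12, 1.11 ± 0.331 for Ccl2 and 0.76 ± 0.311 for Ccl11. Their median was 1.20, compared to -0.01 over the 15873 genes tested. For Ccl8 the value fell to 2.11 without the PF mouse at 43.8 CPM. No gene of the table passed an adjusted p of 0.05 in edgeR's quasi-likelihood test in this comparison (0% called, with 1269 genes at an unadjusted p under 0.05), while DESeq2 called 197 genes (1.24%). The ranges of PF and SO mice overlapped for each of the 5 members, compared to 1.13% of genes whose PF mice all stood above the SO mice.

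PF compared to LO at 12 weeks gave smaller values in the same direction for 5 of 5 members. Ccl8 was higher by 2.20 ± 0.682, and by 1.20 without the same PF mouse, and the other 4 lay between 0.35 for Ccl2 and 0.64 for Ccl11 (median of the 5 members 0.61). The ranges of PF and LO mice overlapped for each member, and 0.221% of genes stood apart in that direction. edgeR called 0% of genes here, with 1466 at an unadjusted p under 0.05, and DESeq2 called 71 (0.447%). LO compared to SO at 12 weeks gave 1.12 ± 0.416 for Ccl7, 0.91 ± 0.695 for Ccl8, 0.76 ± 0.333 for Ccl2, 0.75 ± 0.298 for Ccl12 and 0.12 ± 0.311 for Ccl11, and 0% of genes were called by either tool, with 679 at an unadjusted p under 0.05 in edgeR and 721 in DESeq2. The LO and SO mice overlapped for each member, and 0.384% of genes stood apart with LO higher. The 3 comparisons of a time point share their mice, so the SO values enter both comparisons with SO.

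At 32 weeks the differences between diets were smaller and mixed. PF compared to SO was higher for Ccl2 (0.83 ± 0.600), Ccl7 (0.73 ± 0.670) and Ccl11 (0.60 ± 0.312) and lower for Ccl12 (-0.32 ± 0.436) and Ccl8 (-0.21 ± 0.607). PF compared to LO was lower for all 5, from -0.08 ± 0.310 for Ccl11 to -0.71 ± 0.435 for Ccl12, with a median of -0.34. The direction of the median rested on the LO mouse with the highest Ccl2, Ccl7, Ccl11 and Ccl8, without which it was 0.08. Ccl12 (-0.94 to -0.37) and Ccl8 (-0.62 to -0.04) stayed lower in PF in each fit that left out 1 mouse. LO compared to SO was higher for all 5, from 0.13 ± 0.606 for Ccl8 to 1.11 ± 0.671 for Ccl7. edgeR called 0% of the 16218 genes in each of these 3 comparisons, with 1748, 1394 and 565 at an unadjusted p under 0.05, and DESeq2 called 0.672%, 0.543% and 0.0432%. No member's mice stood apart, compared to 0.968% of genes with PF above SO and 1.21% with PF below it, 0.697% with PF below LO and 0.259% with LO above SO.

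**Figure D2:**
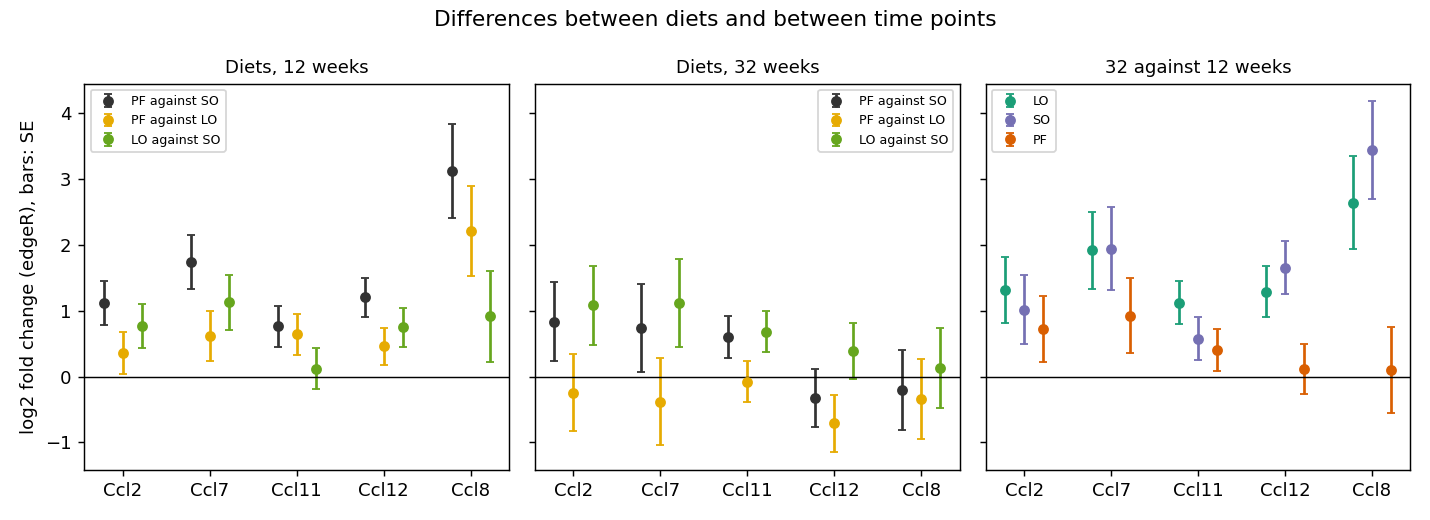
Log2 fold change of each member (points, bars are SE) between diets at 12 weeks, between diets at 32 weeks, and between 32 and 12 weeks within each diet. Ccl8 has the largest values at 12 weeks (3.12 for PF against SO) and between time points in SO (3.43), and the values between diets at 32 weeks lie between -0.71 and 1.11.

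Mice at 32 weeks were then compared to mice of the same diet at 12 weeks. The fold changes known when the genes were chosen were between diets, but the CPM of both time points were known too. The 12-week SO mice also carry the diet difference described above. The p-values of the members below are therefore not independent of the choice of the genes. Age, length of diet and handling of the 2 sets of mice cannot be told apart. Ccl8 had a log2 fold change of 3.43 ± 0.743 in SO mice (10.8-fold higher at 32 weeks, edgeR adjusted p = 0.00789) and of 2.64 ± 0.707 in LO mice (6.23-fold higher, adjusted p = 0.0410). In PF mice it differed by 0.10 ± 0.657 (adjusted p = 0.975). Ccl12 was higher in SO mice by 1.65 ± 0.399 (3.14-fold, adjusted p = 0.0139), while its value was 1.29 ± 0.382 in LO (adjusted p = 0.0601) and 0.11 ± 0.378 in PF (adjusted p = 0.950).

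The other members were above their 12-week level on all 3 diets without passing the threshold. Ccl7 differed by 1.94 in SO (edgeR adjusted p = 0.0601), 1.92 in LO (0.0646) and 0.92 in PF (0.602). Ccl11 differed by 1.12 in LO (adjusted p = 0.0579), 0.58 in SO (0.343) and 0.40 in PF (0.694). Ccl2 differed by 1.32 in LO (adjusted p = 0.131), 1.02 in SO (0.286) and 0.72 in PF (0.647).

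In counts, 2 of 5 members were called in SO, against 6.46% of all genes (5.25% called higher), 1 of 5 in LO, against 2.7% (1.74% higher), and 0 of 5 in PF, against 0.0301% (0.0181% higher). At an unadjusted p under 0.05 the counts were 3, 5 and 0, and DESeq2 called 3, against 9.12% of genes, 4, against 6.47%, and 0, against 0.307%. In SO the mice of the 2 time points did not overlap for Ccl8 and Ccl12, which held for 5.13% of genes in that direction, and no member's mice stood apart in LO or PF, against 1.99% and 0.753%. These counts and ranges rest on CPM known when the genes were chosen. The shares over all genes stand beside them for scale and give no test. In LO, 4 of 5 mice at 32 weeks had more Ccl8 than each mouse at 12 weeks. The LO call of Ccl8 was lost in 8 of 10 fits that left out 1 mouse, with adjusted p up to 0.132. Without the LO mouse at 2.79 CPM (mouse 4 of 32 weeks), all 5 members passed, and the share of all genes called was 6.22%. Leaving out 1 mouse moved that share between 0.28% (without 12-week mouse 3) and 6.22% in LO, and between 1.35% (without 32-week mouse 4) and 9.28% (without 32-week mouse 1) in SO. The SO call of Ccl8 held in each such fit, and that of Ccl12 was lost without 32-week mouse 4 (adjusted p = 0.0860) or 12-week mouse 5 (0.0502).

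Whether the change with time differed between diets is given no test, since that difference is made of the diet differences known when the genes were chosen. A call in SO or LO and none in PF does not show that the diets differed.

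Mice of a group that had more of 1 member tended to have more of the others. After the group mean was taken from log2 CPM, the 10 pairs of members had Pearson correlations of 0.389 to 0.868 over the 30 mice, and all 10 passed a Benjamini-Hochberg adjusted permutation p of 0.05. Ccl2 and Ccl7, neighbours on the chromosome and both ligands of Ccr2, were closest (r = 0.868, Spearman rho = 0.801, adjusted permutation p = 0.0001, the smallest that the permutations can give). Ccl11 and Ccl8, which are not neighbours, came next (r = 0.779, rho = 0.763, adjusted permutation p = 0.0003), then Ccl12 and Ccl8 (r = 0.666, rho = 0.620, adjusted permutation p = 0.0027). Ccl2 and Ccl8, at the ends of the cluster, were least alike (r = 0.389, rho = 0.214, adjusted permutation p = 0.0471 for r and 0.294 for rho). By Spearman's rho 7 of 10 pairs passed. Within-group correlations of other gene pairs were not computed, so these values are not shown to be particular to the cluster. The CPM of each mouse were known when the genes were chosen, so these p-values are not independent of that choice.

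These correlations leaned on a few mice. The LO mouse 4 and the SO mouse 1 of 32 weeks were the lowest of their groups for all 5 members, LO mouse 3 of 32 weeks was the highest for 4, and PF mouse 5 of 12 weeks was the lowest for 4. Without LO mouse 4, 4 of 10 pairs passed, and without SO mouse 1, 6 of 10. Without the 2 mice farthest from the median of the first gene, r lay between 0.228 and 0.793.

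**Figure D3:**
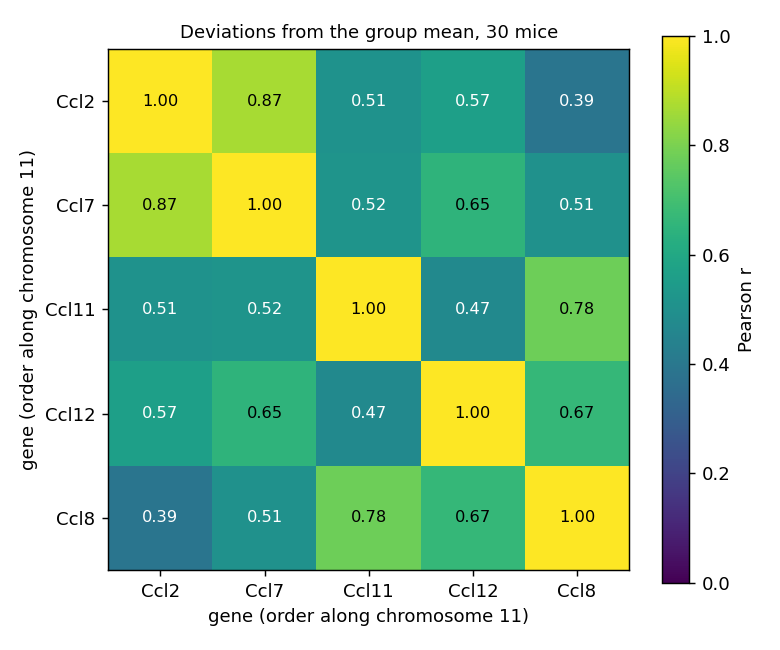
Pearson correlation (colour and number) of each pair of members over 30 mice, after the mean of each diet and time point was subtracted from log2 CPM, with genes in chromosome order. Ccl2 with Ccl7 (0.87) and Ccl11 with Ccl8 (0.78) are the closest pairs and Ccl2 with Ccl8 (0.39) the least close.

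The genes whose log2 CPM over the 30 mice was most like each member, of 16599 searched, are given as a description. For Ccl2 they were Lyz2 (r = 0.834), Msr1 (0.826) and ENSMUSG00000089672 (0.816), the first encoding lysozyme and the second a scavenger receptor, both of macrophages. For Ccl7 they were Tlr2 (r = 0.877), a receptor for bacterial lipoproteins, ENSMUSG00000089672 (0.865) and Ncf1 (0.863), a subunit of the phagocyte oxidase. For Ccl11 they were Rnase4 (r = 0.917), Plau (0.914), which encodes urokinase, and the lectin Clec10a (0.912). For Ccl12 they were Gpr65 (r = 0.911), Ms4a6b (0.892) and the interleukin 10 receptor Il10ra (0.891). For Ccl8 they were Rnase6 (r = 0.934), Tnfrsf13b (0.930), a receptor of B cells, and Evi2a (0.928). These values include the differences between groups and any technical differences between the libraries.

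Of the 6 receptors and decoy receptors of the members described here, 4 could be fitted at 12 weeks and 5 over both time points. edgeR called 0 of them between time points, with 4 at an unadjusted p under 0.05 in LO, 3 in SO and 0 in PF, and DESeq2 called 1, 1 and 0. The monocyte receptor Ccr2 was the most abundant, from 6.41 ± 1.66 CPM (SD, n = 5) in SO at 12 weeks to 16.8 ± 8.41 CPM (SD, n = 5) in LO at 32 weeks. Between time points Ccr2 differed by 1.08 in SO (adjusted p = 0.0953), 0.91 in LO (0.175) and 0.28 in PF (0.840).

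Ccr1, a further receptor of monocytes, differed by 0.91 in SO (adjusted p = 0.212), 0.90 in LO (0.199) and 0.65 in PF (0.602). The decoy receptors Ackr1, found on venules and red cells, and Ackr2, found on lymphatic endothelium, differed in LO by 1.30 (adjusted p = 0.0598) and 1.23 (0.115), in SO by 0.87 (0.203) and 0.55 (0.538) and in PF by 0.0091 (0.998) and 0.50 (0.725). The eosinophil receptor Ccr3 lay between 0 and 2.99 CPM and was not fitted at 12 weeks alone. Between time points it differed by 1.73 ± 0.970 in LO (adjusted p = 0.323), 1.66 ± 1.04 in SO (0.402) and 0.34 ± 0.837 in PF (0.924). Ccr8, the receptor of mouse Ccl8, was not fitted, with group means between 0.0128 and 0.104 CPM. In the diet comparisons edgeR and DESeq2 called 0 of these receptors. PF against SO at 12 weeks had 3 of 4 at an unadjusted p under 0.05, and Ackr1 had the largest difference of them (1.15 ± 0.354, edgeR adjusted p = 0.257).

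Of 6 other CC ligands on chromosome 11, 5 were fitted. In SO mice between time points Ccl3 rose by 1.99 (edgeR adjusted p = 0.0168), Ccl4 by 1.71 (0.00952) and Ccl5 by 1.33 (0.0150). All are attractants of monocytes and T cells. No other CC ligand was called in LO or PF mice or between diets by edgeR. In LO mice between time points all 5 were higher (median 0.89), with 2 at an unadjusted p under 0.05 and 2 called by DESeq2. The median in PF mice was -0.04, with 0 at an unadjusted p under 0.05 and 0 called by DESeq2. In PF against SO at 12 weeks 3 of 5 had an unadjusted p under 0.05 and DESeq2 called 2. Ccl6, the most abundant of the list, had a mean of 11.6 ± 2.28 CPM in SO and 32.6 ± 19.9 CPM in PF at 12 weeks (SD, n = 5), a difference of 1.49 ± 0.394 (edgeR adjusted p = 0.179).

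Of the 12 cytokines listed as inducers, 6 were fitted and Tnf, tumour necrosis factor, rose by 2.14 in SO mice between time points (edgeR adjusted p = 0.0210). Of 10 NF-kB feedback and target genes, 4 rose in SO mice between time points. They were the neutrophil attractant Cxcl2 (2.23, edgeR adjusted p = 0.0272), the adhesion molecule Vcam1 (0.86, 0.0221) and the feedback regulators Nfkbiz (0.65, 0.0182) and Tnfaip3 (0.59, 0.0287). Of 10 genes of the interleukin 4 and STAT6 response, the lectin Cd209a rose in LO mice by 1.56 (edgeR adjusted p = 0.0463). In PF mice between time points edgeR called 0 genes of these 3 lists, with 1, 0 and 1 at an unadjusted p under 0.05, and DESeq2 called 0. In PF against SO at 12 weeks edgeR called 0, with 3, 2 and 6 at an unadjusted p under 0.05, and DESeq2 called 1 cytokine.

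Markers of other cell types were read beside the members, since several moved between the same groups. The summed level of 13 monocyte and macrophage markers lay between 182 and 246 CPM in SO mice at 12 weeks and between 247 and 523 CPM at 32 weeks, and in LO mice between 184 and 334 and between 239 and 830 CPM. In PF mice it lay between 231 and 448 CPM at 12 weeks and between 288 and 562 CPM at 32 weeks. Between time points 7 of 13 were called higher in SO, led by Ly6c2 (3.20), a marker of inflammatory monocytes, Fcgr1 (1.63), Lyz2 (1.51) and Cx3cr1 (1.25), 1 of 13 in LO, Ly6c2 (3.65), and 0 of 13 in PF. At an unadjusted p under 0.05 there were 10 in SO, 11 in LO and 0 in PF, and DESeq2 called 9, 10 and 0. With 1 mouse left out edgeR called 2 to 9 in SO (2 without 32-week mouse 4) and 0 to 11 in LO (11 without 32-week mouse 4). In PF against SO at 12 weeks edgeR called 0 of 13, but 10 had an unadjusted p under 0.05 and DESeq2 called 8, and 12 of 13 were higher in PF (median log2 fold change 0.83). LO mouse 4 of 32 weeks, lowest for the 5 members, was also the lowest of its group for this sum (239 CPM), as was SO mouse 1 (247 CPM) and PF mouse 5 of 12 weeks (231 CPM). The part of these cells in the levels of the members was not tested.

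The 7 eosinophil markers summed to 0.335 to 1.02 CPM in SO mice at 12 weeks and 1.18 to 3.09 CPM at 32 weeks, and to 0.253 to 1.31 and 1.26 to 6.19 CPM in LO mice. In PF mice they summed to 0.497 to 5.20 CPM at 12 weeks and 1.61 to 5.89 CPM at 32 weeks, so that PF held high mice at both time points. Prg2, which encodes the major basic protein of eosinophil granules, rose by 3.37 in LO (edgeR adjusted p = 0.00634) and 1.85 in SO (0.0405), and the interleukin 5 receptor Il5ra rose by 2.01 in LO (0.0180) and 2.08 in SO (0.00899). The granule gene Epx had a group mean of at most 0.0183 CPM, and Ear1 and Ear6 were at 0 in 5 of 6 groups each, so that eosinophil transcripts were scarce beside Ccl11. In PF mice 0 of the 4 fitted markers were called, with 1 at an unadjusted p under 0.05 and 0 in DESeq2.

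Lymphocyte markers rose in SO mice, with 6 of 6 T cell genes, led by Cd3d (3.88, edgeR adjusted p = 0.00261), and 4 of 4 B cell genes, led by Ms4a1 (3.80, 0.0212), called between time points. In LO and PF mice 0 were called between time points, with 0 at an unadjusted p under 0.05 and 0 in DESeq2. In PF against SO at 12 weeks all of these genes were higher in PF (median 1.24 for T cell and 2.31 for B cell genes). There edgeR called 0, with 5 of 6 T cell and 4 of 4 B cell genes at an unadjusted p under 0.05. DESeq2 called 1 T cell gene and 0 B cell genes. SO mouse 4 of 32 weeks stood far above the others, with a T cell sum of 37.2 CPM against 7.17 to 11.6 CPM in the other 4 and a B cell sum of 83.1 CPM against 4.18 to 23.1 CPM. At 12 weeks these sums were 2.11 to 3.82 CPM and 1.47 to 4.68 CPM in SO, and 3.21 to 11.6 CPM and 2.04 to 36.2 CPM in PF. Without SO mouse 4 of 32 weeks edgeR called 3 of 6 T cell and 0 of 4 B cell genes between time points, with all of them at an unadjusted p under 0.05. The calls in SO also fell to 1 of 5 other CC ligands, 0 of 6 cytokines and 0 of 10 NF-kB genes without it. Of the 3 neutrophil genes fitted, Csf3r rose in SO (1.22), and of 5 endothelial genes Emcn rose in SO (0.84), and both calls were lost without the same mouse. Of 7 markers of the prostate luminal epithelium, the secretory gene Sbp fell in LO (-0.81, edgeR adjusted p = 0.0410) and SO (-0.96, 0.0100). Mast cell, fibroblast, smooth muscle and adipocyte markers had 0 edgeR calls between time points, with 3, 2, 1 and 0 genes at an unadjusted p under 0.05 in LO, 0, 1, 0 and 0 in SO and 4, 0, 2 and 0 in PF, and DESeq2 called 2 fibroblast genes in LO. Their largest values were 1.12 for Cma1 in PF, 1.24 for Lum in LO, -0.38 for Des in LO and 1.48 for Cfd in PF. The summed luminal markers were lower at 32 weeks with no overlap between time points in SO, from between 225689 and 320528 to between 144316 and 171311 CPM, and in LO, from between 203582 and 325781 to between 107105 and 199445 CPM. In PF the ranges overlapped (178938 to 335470 and 125033 to 298056 CPM). The part of this shift in the members' change with time was not tested. The seminal vesicle markers summed to at most 0.276 CPM.

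**Figure D4:**
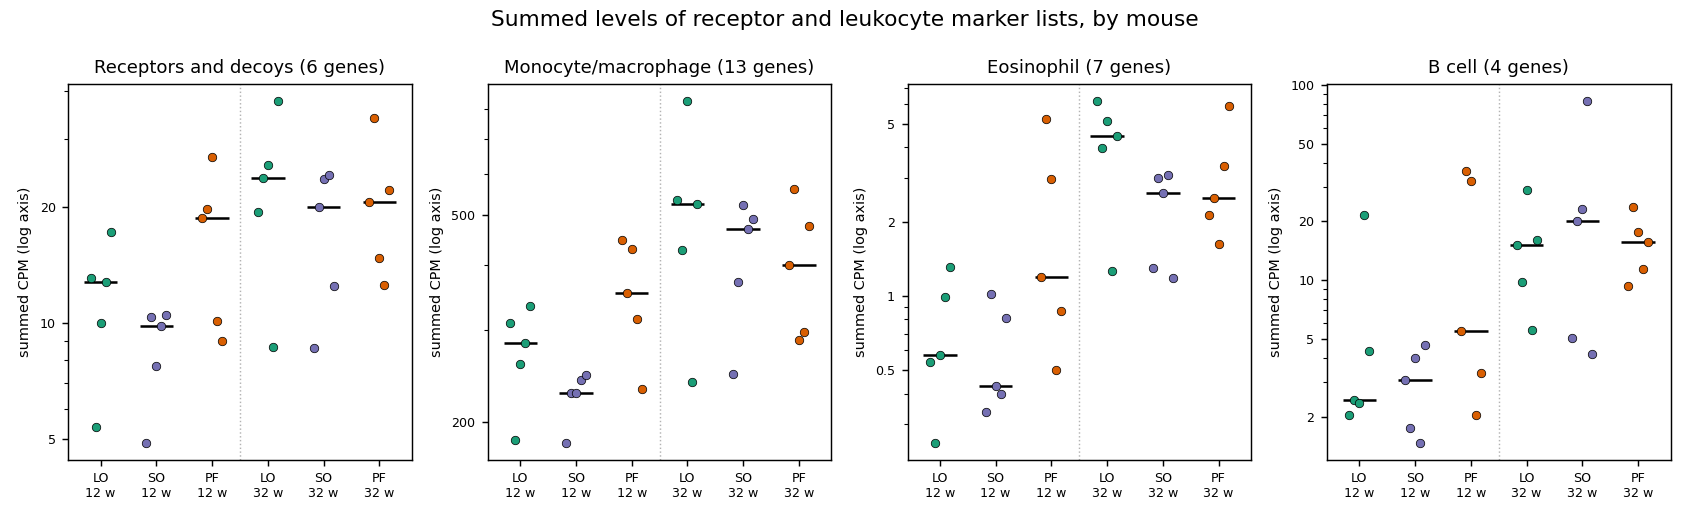
Summed CPM (log axis) of the receptors and of the monocyte and macrophage, eosinophil and B cell markers in each mouse, by diet and time point (points are mice, lines are medians of 5). The monocyte and macrophage sum in SO mice is at most 246 CPM at 12 weeks and at least 247 CPM at 32 weeks, and the B cell sum reaches 83.1 CPM in 1 SO mouse at 32 weeks.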

How the data were processed

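RNA of 30 VP samples was sequenced as 100-base pairs on an Illumina HiSeq after TruSeq Stranded mRNA preparation. The authors aligned the reads with TopHat2 and counted them per gene with HTSeq, and the submitters' processing notes name GRCm38.p6. The deposited values are raw counts per mouse, with no normalization. The strand setting of the counting and tool versions are not given in the sources used here. The 5 rows that name no gene held 23.7% to 32.2% of fragments (16.0% to 20.3% not uniquely aligned) and were left out.

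From the counts, genes were filtered by filterByExpr, scaled by TMM and compared by edgeR 4.0.16 in R 4.3.3 (quasi-likelihood, two-sided), with the 15 mice of a time point in 1 fit for diets and all 30 mice in 1 fit for time points. SEs came from the F statistic. P-values were Benjamini-Hochberg adjusted over all genes tested (threshold 0.05). Log2 CPM had a prior count of 2. Correlations used 100000 permutations of mice within groups. DESeq2 1.42.0, other scalings and filters, a replicate block and leaving out each mouse were alternatives. Counts of the other lists with a mouse left out were added after seeing the data. Groups and replicate numbers came from the labels. Both scripts for tests were tested on simulated data. Counts of the 60 pairs of mice within groups differed by more than sampling noise (chi-square per degree of freedom at least 24.5).

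The members and lists were chosen with earlier results of these data known. Named genes were the 5 members, the receptors (1 gene of that list is not reported here), in every other list the called genes (at most 4, largest change first) or else the largest change and the most abundant gene, the 3 genes most like each member, and the nearest protein-coding neighbours. Sequences came from GENCODE M21 transcripts and the RefSeq promoter table.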

Additional observations from a re-analysis of the deposited data

Results flagged for a closer look

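Among the 30 combinations of a member and a group, 1 held a mouse far from the others. Ccl7 in LO mouse 3 of 12 weeks was 0.288 CPM (8 counts), and the other 4 LO mice lay between 0.676 and 0.821 CPM. The gap to the nearest mouse was 0.729 of the range of the group, above the critical value of 0.71 for 5 samples. By chance about 1 in 20 groups is marked in this way.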

How the results depend on the processing

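In LO, the number of members called between time points was 4 with DESeq2 and with total counts alone (Ccl7, Ccl8, Ccl11 and Ccl12), and 0 without a filter or with only the 2 groups fitted, and it ranged from 0 to 5 when each mouse was left out. In SO it ranged from 1 to 3 and in PF it was 0 throughout. The number of correlated pairs ranged from 4 to 10. The causes were not tested. With total counts alone the median log2 fold change of all genes was 0.16 in LO and 0.19 in SO, compared to -0.0124 and -0.00436, and the genes called went from 289 higher and 159 lower to 1323 and 52 in LO, and from 871 and 202 to 2770 and 32 in SO. Over all genes DESeq2 called 1075 in LO, 1515 in SO and 51 in PF, compared to 448, 1073 and 5. Median differences between diets, with each mouse left out, were 1.12 to 1.39 (PF against SO), 0.44 to 0.74 (PF against LO) and 0.60 to 0.93 (LO against SO) at 12 weeks, and 0.29 to 0.82, -0.75 to 0.08 and 0.38 to 0.90 at 32 weeks.

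Between diets, deviations of same-numbered mice had a mean correlation of 0.0559 at 12 weeks, against -0.0137 for mice of different numbers. At 32 weeks the values were 0.132 against -0.0291. Between time points they were 0.101 against -0.0256 in LO, 0.168 against -0.0396 in SO and 0.0839 against -0.0206 in PF. Same-numbered mice were thus somewhat more alike on average. The labels do not say whether the numbers pair the mice, so the replicate block is given as an alternative. With the replicate block 1 member was called in LO (4.02% of all genes), 3 in SO (Ccl7 added, adjusted p = 0.0472, 7.37% of all genes) and 0 in PF (0.0361%), 9 pairs were correlated, and the median for PF against SO at 12 weeks was 1.16. A minimum of 10 counts in every sample left out some of the thinly counted members, whose low counts limit the precision.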
